A study of Homo sapiens with 7 samples.

Results

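The serpin superfamily was examined through 8 of its genes in Huh-7 cells, a human liver cancer line. They are SERPINA1, SERPINA3, SERPINA4, SERPINA5, SERPINA6, SERPINA7 and SERPINA10 of clade A, and SERPINF1 of clade F, which the liver also secretes. The genes were found by their symbol among the 58174 genes of the deposited table, and 8 of 8 symbols matched 1 gene each. They were chosen from measured values, after the higher level of SERPINA7 in the depleted cells of these same libraries was known. Differences between the groups are therefore given for the 8 genes as a description. Their standard errors, intervals and threshold calls come from a fit over all genes and are not read as tests. The study compared total RNA from cells transfected with control siRNA (siC, 3 libraries) and from cells transfected with siRNAs directed against IGF2BP1 (siImp1, 4 libraries, after Imp1, another name of that RNA-binding protein). Both groups were harvested 72 h after transfection, so the model is a transient depletion in 1 tumor cell line.

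Serpins are secreted or intracellular proteins with a shared fold. Most trap a protease by offering a reactive loop as bait, after which the serpin changes shape and holds the enzyme in a covalent complex. A few have lost this activity and carry hormones instead. In clade A, SERPINA7 is thyroxine-binding globulin and SERPINA6 is corticosteroid-binding globulin, the main plasma carriers of thyroid hormone and cortisol. SERPINA1 (alpha-1-antitrypsin) inhibits neutrophil elastase, SERPINA3 (alpha-1-antichymotrypsin) inhibits cathepsin G, SERPINA4 is kallistatin, SERPINA5 is the protein C inhibitor, and SERPINA10 inhibits coagulation factor Xa together with protein Z. SERPINF1 (pigment epithelium-derived factor) is a secreted serpin without protease inhibition.

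Of the 8 genes, 6 lie in the serpin cluster of chromosome 14, which spans 344 kb from the 5-exon gene SERPINA10 to SERPINA3 (GRCh38, 94280460 to 94624055). The remaining 2 lie elsewhere. SERPINA7 (ENSG00000123561) occupies chromosome X, 106032435 to 106038727, on the minus strand, with 5 exons and a 3'UTR of 1065 bases. SERPINF1 (ENSG00000132386) occupies chromosome 17, 1762029 to 1777565, on the plus strand, with 8 exons. The GC content of the transcripts was 42.3% for SERPINA7 and 41.4% for SERPINA10, and ran from 51.5% (SERPINA5) to 55.8% (SERPINF1) in the others.

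Promoter sequences were examined because homeodomain transcription factors of the liver, which drive many secreted liver proteins, bind sites built from the hexamer GTTAAT. RefSeq promoter windows (GRCh38.p14, 250 bases before to 50 bases after the start site) were given for 7 of the 8 genes, in 9 windows. GTTAAT was found on either strand in 5 of these 7 genes. Of 34943 promoter windows of the same length, 6.9% held it, a share per window rather than per gene. SERPINA1 and SERPINA10 had more than a single window each, and a match in any window counted. The stretches of 30 bases around the matches are shown for the genes that hold them, 5' to 3' on the strand of the gene, with the hexamer or its reverse complement in capitals. SERPINA7 (chrX:106038792-106038821, minus strand, -94 to -65 from the start site) and SERPINA1 (chr14:94388661-94388690, minus, -88 to -59) come first, followed by SERPINA4 (chr14:94561355-94561384, plus, -87 to -58), SERPINA10 (chr14:94293306-94293335, minus, -67 to -38) and SERPINA6 (chr14:94323489-94323518, chr14:94323434-94323463 and chr14:94323377-94323406, minus).
SERPINA7: cccaggGTTAATgctgggGTTAATttataa
SERPINA1: ggggtgaccttgGTTAATattcaccagcag
SERPINA4: cgtagcctgtttGTTAATaattacctggtc
SERPINA10: cacaagcaggatGTTAATcagtaaccgtcc
SERPINA6 from -182: acgcagagcaaaGTTAATttgcagcatttc
SERPINA6 from -127: agcctcccattgGTTAATgactcgggggag
SERPINA6 from -70: gcccctctaaccATTAACcacccaggaagc

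SERPINA7 carried 2 copies within a single stretch, in the same orientation. SERPINA6 carried 3 copies in its window, of which 1 was reversed. The windows of SERPINA3 and SERPINA5 did not hold the hexamer. The TATA element TATAAA was found in the window of 1 of the 7 genes, SERPINA7, where 1 of its matches overlaps the second GTTAAT by the last base on the opposite strand (11.6% of all windows held TATAAA). TTGCNNAA, a motif of C/EBP factors, was found in 2 of 7 genes, SERPINA7 and SERPINA10 (10.5% of all windows). AGGTCA, a motif of nuclear receptors, was found in SERPINA1 and SERPINA3 (13.8% of all windows). All motifs were searched on both strands, and each share of all windows is per window rather than per gene. A match describes letters in a window and does not show that a factor binds there.

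The libraries held from 12826550 to 33212205 reads on genes. Abundance is given as FPKM, fragments scaled to gene length and a library size. That size was below the reads on genes in each siC library and above them in each siImp1 library. It was 32030975 against 33212205 in siC replicate 2 and 18753458 against 18248256 in siImp1 replicate 2. The deposited gene length exceeded that of the canonical transcript to an unequal degree. It was 5007 against 1576 bases for SERPINA3, 2338 against 1665 for SERPINA4 and 2744 against 2360 for SERPINA7. Levels of different genes can therefore be compared only roughly. IGF2BP1 itself was at 81.9, 80.4 and 84.4 FPKM in siC and at 15.6, 15.7, 16.6 and 15.3 FPKM in siImp1 (log2 change -2.37). Of 8 hepatocyte markers 8 passed the filter on low values, and their summed level was 5782 to 7225 FPKM in siC and 6538 to 6698 FPKM in siImp1. Among markers of other liver cells, KRT7 and KDR were listed at 0 in every library, and CDH5, PTPRC, CD3E, CD68, DCN and ACTA2 were below 0.04 FPKM. The 4 cholangiocyte markers summed to 65.4 to 79.7 FPKM in siC and 50.9 to 58.0 FPKM in siImp1, mostly KRT19 and SOX9, of which SOX9 passed as lower (log2 difference -0.73, limma adjusted p = 0.00512). The 5 immune markers summed to 148 to 164 and 115 to 131 FPKM, mostly LYZ. SOX9 and CD14, an immune marker, are named after their values were seen, and CD14 was at 0.892 ± 0.396 FPKM (siC, SD, n = 3) against 2.25 ± 0.283 FPKM (siImp1, SD, n = 4) (log2 difference 1.33, limma adjusted p = 0.0338). The 6 mesenchymal markers summed to 8.93 to 9.38 and 7.46 to 8.33 FPKM, and 4 endothelial markers to 2.59 to 3.07 and 2.86 to 3.30 FPKM. The part of these markers in the levels of the serpins was not tested. In bulk RNA, fewer cells with a transcript and less transcript per cell cannot be told apart. The replicate 3 library of siC stood apart from the other siC libraries for several of the serpins, and differences are given with and without it.

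The thyroxine carrier SERPINA7 showed the largest difference of the 8 genes between the groups. It was at 0.417, 0.557 and 0.397 FPKM in siC replicates 1 to 3. In siImp1 replicates 1 to 4 it was at 4.63, 4.62, 3.71 and 5.05 FPKM. Each siImp1 library lay above each siC library, with a wide gap between the groups. The mean was 0.457 ± 0.0873 FPKM (siC, SD, n = 3) against 4.50 ± 0.565 FPKM (siImp1, SD, n = 4), a ratio of 9.85. On the scale log2(FPKM + 0.1) the difference was 3.05 (SE 0.163, 95% interval 2.66 to 3.43), and it was 2.97 without siC replicate 3. These values rested on 25, 49 and 15 reads in siC and on 230, 238, 135 and 180 reads in siImp1. SERPINA7 reached the mean of 1 FPKM required for the fit over all genes only through its siImp1 libraries.

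In that fit (limma, threshold 0.01 after Benjamini-Hochberg adjustment over 14839 genes), 1.65% of genes were higher and 2.28% lower in siImp1. Of the serpins, 7 entered the fit. SERPINA7 was the only one past the threshold, and none was lower. All siImp1 values lay above all siC values for SERPINA7 and for no other of the 7, compared with 11.9% of all genes in the fit. Since SERPINA7 was chosen for this difference, nothing is read from these counts.

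**Figure D1:**
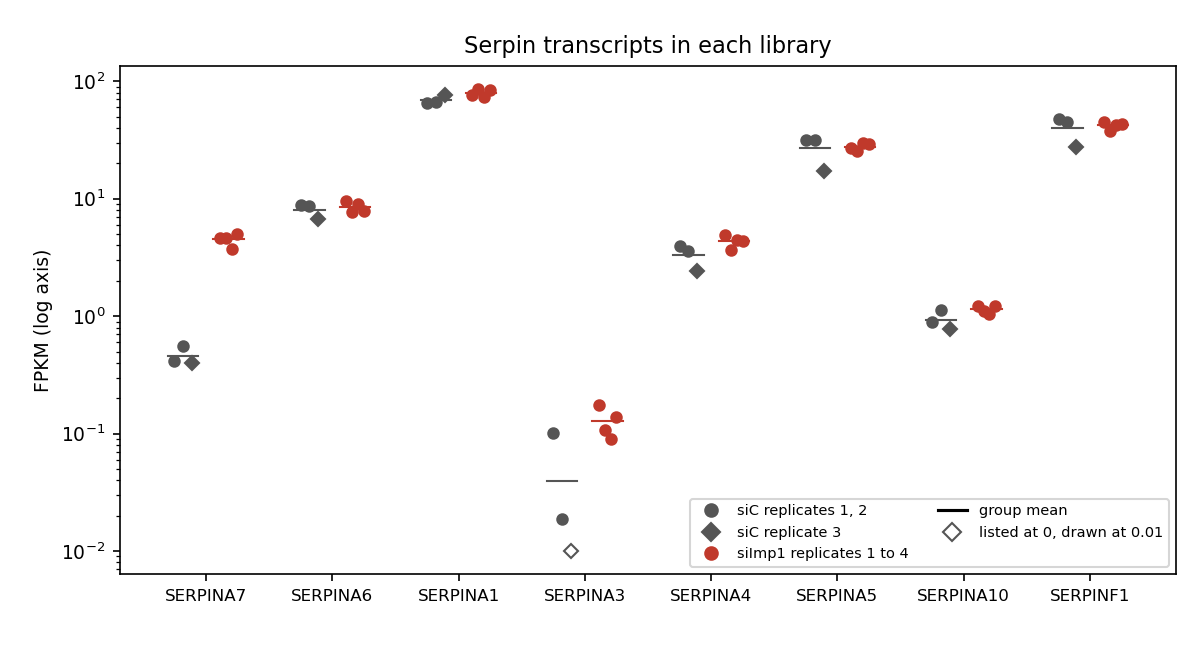
FPKM on a log axis of the 8 serpins in each library, with siC in grey (replicate 3 as a diamond), siImp1 in red and a line at each group mean; the open diamond is a library listed at 0. SERPINA7 is near 0.457 FPKM in siC and 4.50 FPKM in siImp1, while the groups of each of the other 7 genes overlap.

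The other hormone carrier, SERPINA6, was at similar levels in both groups. SERPINA6 (ENSG00000170099, chromosome 14, 94304248 to 94323389, minus strand) was at 8.75, 8.72 and 6.75 FPKM in siC and at 9.59, 7.77, 8.96 and 7.90 FPKM in siImp1. The groups overlapped, and replicate 3 was the lowest siC library. The means were 8.07 ± 1.15 FPKM (siC, SD, n = 3) against 8.56 ± 0.872 FPKM (siImp1, SD, n = 4). The log2 difference was 0.088 (SE 0.123, 95% interval -0.20 to 0.38) and changed sign to -0.034 without siC replicate 3.

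SERPINA1 was the most abundant of the 8 genes in every library. SERPINA1 (ENSG00000197249, chromosome 14, 94376747 to 94390693, minus strand) was at 65.8, 66.6 and 76.5 FPKM in siC and at 76.2, 85.7, 73.6 and 84.7 FPKM in siImp1. The groups overlapped through siC replicate 3, which here was the highest siC library. The means were 69.6 ± 5.97 FPKM (siC, SD, n = 3) against 80.1 ± 6.08 FPKM (siImp1, SD, n = 4), with a log2 difference of 0.20 (SE 0.088, 95% interval -0.0071 to 0.41). Without siC replicate 3 the difference was 0.27. At least 4779 reads lay on SERPINA1 in each library.

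SERPINA3, an acute-phase gene of the liver, was hardly detected. SERPINA3 (ENSG00000196136, chromosome 14, 94612384 to 94624055, plus strand) held 11, 3 and 0 reads in siC and 16, 10, 6 and 9 reads in siImp1. Its levels were 0.101, 0.0187 and 0 FPKM in siC and 0.176, 0.106, 0.0904 and 0.138 FPKM in siImp1, and the groups overlapped. The 0 in siC replicate 3 allows a level of up to 0.0435 FPKM (3 reads, counting error only). Its mean over the 7 libraries was 0.0902 FPKM, far below the filter, while SERPINA10 lay just inside it at 1.05 FPKM. Both SERPINA3 and SERPINA5 overlap the gene ENSG00000273259 on the same strand, to which 3 to 18 reads were assigned. The annotated span of SERPINA3 lies wholly within that gene, and reads in shared stretches may have been assigned to either gene or to none, so the levels of SERPINA3 and SERPINA5 are uncertain.

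The groups also overlapped for the protease inhibitors of coagulation and the kallikrein system. SERPINA5 (ENSG00000188488, chromosome 14, 94561442 to 94593118, plus strand) was at 31.8, 31.4 and 17.2 FPKM in siC and at 27.0, 25.4, 29.8 and 28.999 FPKM in siImp1. The siImp1 libraries fell between siC replicate 3 and the other siC libraries. The means were 26.8 ± 8.28 FPKM (siC, SD, n = 3) against 27.8 ± 1.98 FPKM (siImp1, SD, n = 4), with a log2 difference of 0.10 (SE 0.215, 95% interval -0.40 to 0.61) that became -0.19 without siC replicate 3.

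SERPINA4, whose annotated span lies within that of SERPINA5 on the same strand, was at 3.94, 3.59 and 2.42 FPKM in siC. Reads in the shared stretch may have been split or dropped in counting, so the levels of SERPINA4 and SERPINA5, and the place of SERPINA4 in any order of levels, are uncertain. In siImp1 SERPINA4 was at 4.93, 3.63, 4.42 and 4.35 FPKM, and the groups overlapped through siImp1 replicate 2. The means were 3.32 ± 0.793 FPKM (siC, SD, n = 3) against 4.33 ± 0.538 FPKM (siImp1, SD, n = 4). The log2 difference was 0.40 (SE 0.181, 95% interval -0.032 to 0.82), or 0.19 without siC replicate 3. SERPINA10, the inhibitor of factor Xa, was at 0.896, 1.12 and 0.770 FPKM in siC and at 1.23, 1.10, 1.03 and 1.22 FPKM in siImp1, and the groups overlapped. Its means were 0.928 ± 0.176 FPKM (siC, SD, n = 3) against 1.15 ± 0.0963 FPKM (siImp1, SD, n = 4), with a log2 difference of 0.29 (SE 0.201, 95% interval -0.18 to 0.76), or 0.18 without siC replicate 3.

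SERPINF1, of clade F, was second in abundance. It was at 47.8, 45.2 and 27.6 FPKM in siC and at 44.8, 38.1, 42.6 and 43.5 FPKM in siImp1. The siImp1 libraries again fell between siC replicate 3 and the rest of siC. The means were 40.2 ± 11.005 FPKM (siC, SD, n = 3) against 42.2 ± 2.93 FPKM (siImp1, SD, n = 4), with a log2 difference of 0.11 (SE 0.190, 95% interval -0.34 to 0.56), or -0.14 without siC replicate 3.

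**Figure D2:**
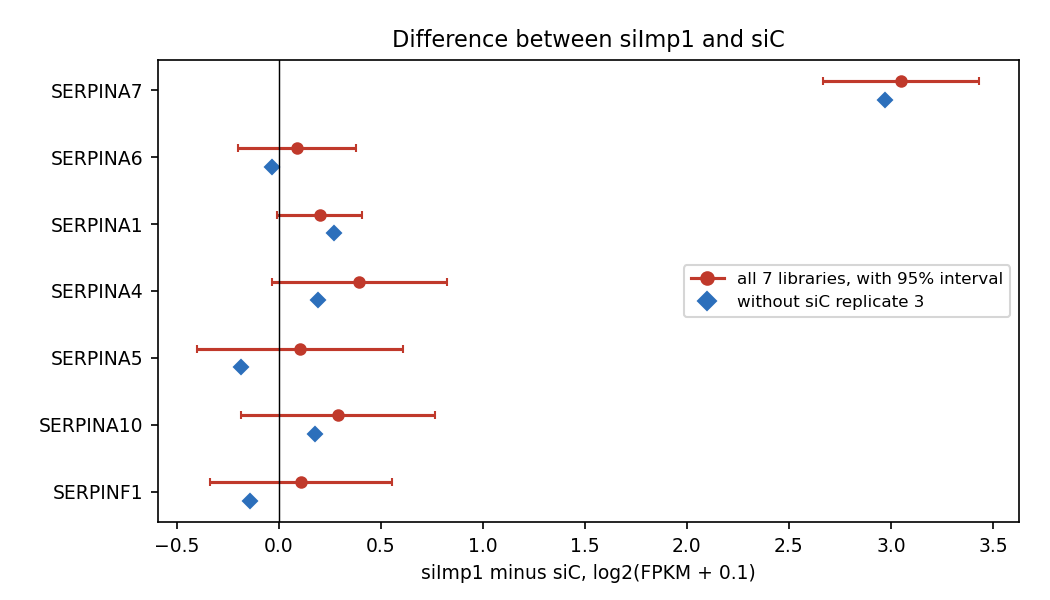
Difference between siImp1 and siC of the 7 serpins in the fit, on the log2(FPKM + 0.1) scale; red points are all 7 libraries with 95% intervals and blue diamonds are the differences without siC replicate 3. SERPINA7 is at 3.05, the interval of each other gene includes 0, and SERPINA5, SERPINA6 and SERPINF1 cross 0 without that library.

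With all libraries the differences of 7 of the 7 genes were above 0, compared with 47.1% of all genes in the fit, and their median was 0.20 against -0.017 for all genes. Without siC replicate 3, 4 of the 7 were above 0 (SERPINA1, SERPINA4, SERPINA7 and SERPINA10), compared with 45.5% of all genes. Their median was then 0.18, against -0.031 for all genes. On the log2 scale this library lay below the mean of the other siC libraries by 0.87 for SERPINA5 and by 0.75 for SERPINF1, and 5.67% and 8.03% of all genes, respectively, had a lower value of this difference. It was 0.61 lower for SERPINA4, 0.37 for SERPINA6, 0.34 for SERPINA10 and 0.23 for SERPINA7, but 0.21 higher for SERPINA1. The median over all genes was -0.033. The coefficient of variation in siC was accordingly 30.9% for SERPINA5 and 27.4% for SERPINF1, compared with 7.10% and 6.95% in siImp1.

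The order of levels in FPKM, which depends on the gene lengths used, changed at 1 place. In siC it ran SERPINA1, SERPINF1, SERPINA5, SERPINA6, SERPINA4, SERPINA10, SERPINA7 and SERPINA3, and only the neighbours SERPINF1 and SERPINA5 overlapped. In siImp1 SERPINA7 stood between SERPINA6 and SERPINA4, and its libraries overlapped those of SERPINA4. SERPINA7 was at 10.6%, 15.5% and 16.4% of the SERPINA4 level in siC and at 93.8%, 128%, 84.0% and 116% in siImp1. Of the summed FPKM of the clade A genes examined, SERPINA7 took 0.374%, 0.498% and 0.381% in siC and 3.74%, 3.60%, 3.05% and 3.82% in siImp1. The sum itself was 104 to 112 FPKM in siC and 122 to 132 FPKM in siImp1, of which SERPINA1 made up from 58.9% to 73.5% in any library.

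The remaining serpin genes of the chromosome 14 cluster were nearly silent. SERPINA2 and SERPINA11 held at most 3 reads and SERPINA12 at most 1 read in any library. SERPINA9, a serpin of germinal center B cells, was listed at 0 in all 7. Along the cluster SERPINA2 lies between SERPINA6 and SERPINA1, and SERPINA11, SERPINA9 and SERPINA12 lie between SERPINA1 and SERPINA4.

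**Figure D3:**
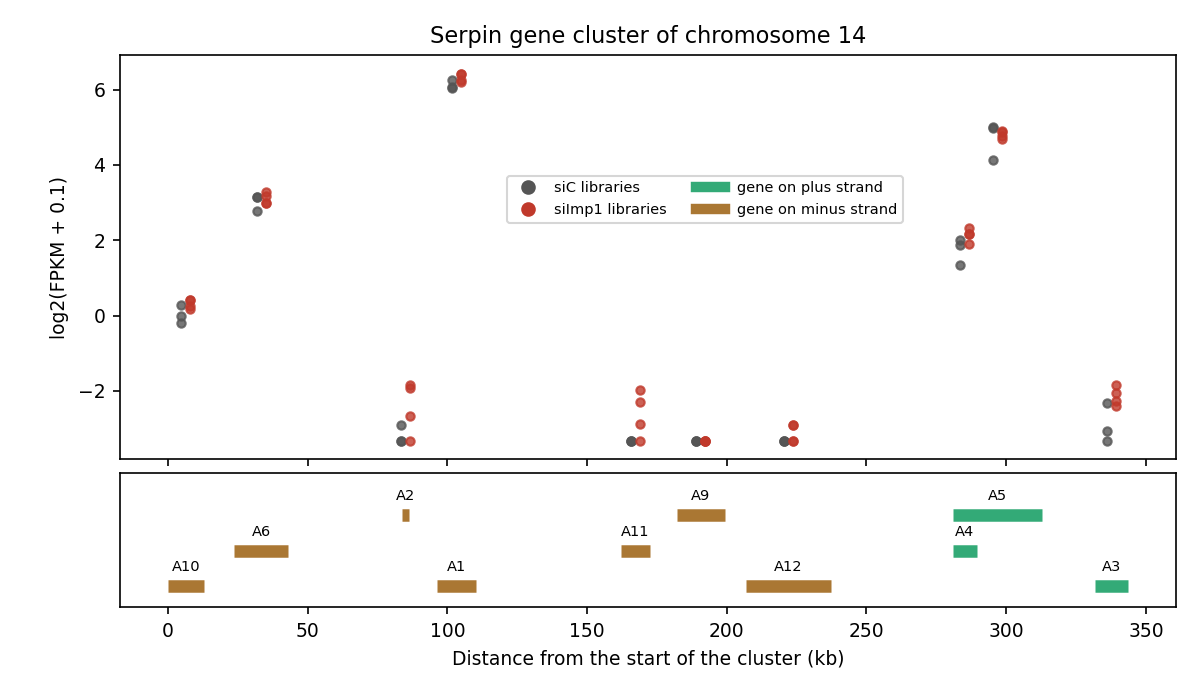
Level of each serpin gene of the chromosome 14 cluster as log2(FPKM + 0.1) in siC (grey) and siImp1 (red) libraries, above a map of the genes by distance in kb from the start of the cluster, with strand by color. SERPINA1 and SERPINA5 have the highest levels, the 4 genes SERPINA2, SERPINA9, SERPINA11 and SERPINA12 lie near the value of 0 FPKM, and the groups overlap at each gene.

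The surroundings of SERPINA7 on chromosome X were looked at after its values were seen. Of 10 other protein-coding genes within 1 Mb, 5 entered the fit and none passed the threshold with all libraries. Their log2 differences were 0.42 for CLDN2, a claudin of tight junctions (limma adjusted p = 0.165), and 0.39 for TBC1D8B (limma adjusted p = 0.0917). They were 0.33 for MORC4 (limma adjusted p = 0.0278), 0.27 for RNF128, a ubiquitin ligase (limma adjusted p = 0.0251), and 0.081 for CXorf57 (limma adjusted p = 0.799). RNF128 passed without siC replicate 3 (0.28, limma adjusted p = 0.00812). NRK and MUM1L1 were too low to be tested, at 0.433 to 0.459 and 0.101 to 0.167 FPKM in siC and at 0.585 to 0.692 and 0.319 to 0.553 FPKM in siImp1. RIPPLY1 was also below the filter, and IL1RAPL2 and TEX13A were listed at 0.

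The genes whose pattern over the 7 libraries was most like that of SERPINA7 were found by the root mean square difference of centred log2 values. APOBEC3C, a cytidine deaminase that restricts viruses, was nearest at 0.246, followed by HAMP, which encodes the iron hormone hepcidin, at 0.385. ALDH8A1, an aldehyde dehydrogenase of the liver, was at 0.391 and the transcript RP13.714J12.1 at 0.435. HAMP was at 0.502, 0.550 and 0.531 FPKM in siC and at 3.17, 2.91, 2.66 and 3.30 FPKM in siImp1, and APOBEC3C at 0.228, 0.366 and 0.155 and at 2.15, 1.89, 2.03 and 2.27 FPKM, respectively. Like SERPINA7, these genes were low in siC and several-fold higher in each siImp1 library, which is what the measure selects.

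Other carriers of hormones and the proteins that handle thyroid hormone and steroids formed a list of 18 genes, of which 10 were tested. None passed the threshold in either direction. An unadjusted limma p under 0.05 was reached by 3 higher and 2 lower genes, compared with 1638 higher and 2200 lower of all 14839 genes. limma-voom on reads called 2 higher, compared with 353 of all genes. The median difference was 0.13. GC, the vitamin D carrier, was at 95.7, 96.2 and 59.5 FPKM in siC and at 163, 152, 160 and 166 FPKM in siImp1 (log2 difference 0.97, limma adjusted p = 0.0142). GC passed without siC replicate 3 (0.74, limma adjusted p = 0.000424). TTR, transthyretin, the other plasma carrier of thyroxine, had a log2 difference of -0.49 (limma adjusted p = 0.133), and its groups overlapped. TTR passed as lower without siC replicate 3 (-0.71, limma adjusted p = 0.00447). ALB, which binds both hormones loosely, was at 1814 ± 95.3 FPKM (siC, SD, n = 3) against 1993 ± 46.5 FPKM (siImp1, SD, n = 4), a log2 difference of 0.14 (limma adjusted p = 0.443).

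A further list held 28 other serpins, of which 11 were tested, with a median of 0.22 over the 11. The most abundant were AGT, angiotensinogen, which is itself a clade A serpin without inhibitory activity, SERPIND1, heparin cofactor II, and SERPINF2, the inhibitor of plasmin. Their log2 differences were 0.37 (limma adjusted p = 0.135), 0.60 (limma adjusted p = 0.02) and 0.032 (limma adjusted p = 0.941). Without siC replicate 3, AGT passed at a smaller difference (0.19, limma adjusted p = 0.00927), SERPIND1 passed (0.46, limma adjusted p = 0.0018), and the value of SERPINF2 was -0.22. SERPINC1, antithrombin, chosen after its values were seen, was at 5.21 ± 1.77 FPKM (siC, SD, n = 3) against 10.5 ± 0.711 FPKM (siImp1, SD, n = 4) (log2 difference 1.06, limma adjusted p = 0.026), and it passed without siC replicate 3 (0.77, limma adjusted p = 0.00456). No library held a read on 10 of the 28.

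Proteases that serpins inhibit, and their partners, made up 22 genes, of which 12 were tested. Among these 3 rose past the threshold and none fell, compared with 1.65% higher and 2.28% lower of all genes in the fit. The median was 0.45, against -0.017 for all genes. At an unadjusted limma p under 0.05, 6 were higher and 1 lower, compared with 1638 and 2200 of all 14839 genes. limma-voom called 4 higher and 1 lower, compared with 353 and 489. Without siC replicate 3, 5 were higher and 1 lower, compared with 533 and 990, and the median was 0.29. PLAU, urokinase, which SERPINA5 inhibits, was at 2.38, 2.18 and 2.54 FPKM in siC and at 7.15, 7.74, 7.24 and 7.47 FPKM in siImp1 (log2 difference 1.61, limma adjusted p = 0.00038). HPN, the liver surface protease hepsin, was at 3.60, 3.79 and 2.69 and at 8.21, 8.36, 8.46 and 8.32 FPKM (log2 difference 1.30, limma adjusted p = 0.00125). PROS1, protein S, the cofactor of protein C, rose less, with 70.3 ± 1.07 FPKM (siC, SD, n = 3) against 90.4 ± 2.72 FPKM (siImp1, SD, n = 4) (log2 difference 0.36, limma adjusted p = 0.00836), and passed the threshold in 8 of 17 alternative fits.

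The most abundant of the other genes in that list were RPSA, a ribosomal protein also described as a laminin receptor, and F2, prothrombin. Their log2 differences were -0.18 (limma adjusted p = 0.447) and 0.44 (limma adjusted p = 0.312). PROC, PROZ and F10 were chosen after their values were seen. PROC, protein C, the partner of SERPINA5, was at 12.6 ± 1.75 FPKM (siC, SD, n = 3) against 7.75 ± 0.799 FPKM (siImp1, SD, n = 4) (log2 difference -0.69, limma adjusted p = 0.0147). PROZ, protein Z, with which SERPINA10 acts, was at 2.23 ± 0.780 FPKM (siC, SD, n = 3) against 5.04 ± 0.478 FPKM (siImp1, SD, n = 4) (log2 difference 1.19, limma adjusted p = 0.018). F10, the zymogen of factor Xa, was at 10.9 ± 4.63 FPKM (siC, SD, n = 3) against 20.8 ± 1.75 FPKM (siImp1, SD, n = 4) (log2 difference 1.03, limma adjusted p = 0.0768). None of the 3 passed with all libraries, and each passed without siC replicate 3, F10 at a difference of 0.61. ELANE and CTSG, the neutrophil targets of SERPINA1 and SERPINA3, were listed at 0 in every library.

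Factors and receptors that regulate serpin genes in liver made up 28 genes, all of which were tested. Of these 4 rose past the threshold and none fell, compared with 1.65% higher and 2.28% lower of all genes in the fit. The median was 0.0063, against -0.017 for all genes. At an unadjusted limma p under 0.05, 8 were higher and 2 lower, compared with 1638 and 2200 of all 14839 genes. limma-voom called 4 higher and 1 lower, compared with 353 and 489 of all genes. Without siC replicate 3, 4 were higher and 1 lower, compared with 533 and 990 of all genes. IL1R1, the interleukin 1 receptor, was at 7.19 ± 0.337 FPKM (siC, SD, n = 3) against 15.3 ± 0.468 FPKM (siImp1, SD, n = 4) (log2 difference 1.08, limma adjusted p = 0.000386). Its accessory chain IL1RAP was at 8.08 ± 0.228 FPKM (siC, SD, n = 3) against 12.8 ± 0.435 FPKM (siImp1, SD, n = 4) (log2 difference 0.66, limma adjusted p = 0.00117). STAT3, which carries the interleukin 6 signal, was at 10.1 ± 0.430 FPKM (siC, SD, n = 3) against 14.5 ± 0.345 FPKM (siImp1, SD, n = 4) (log2 difference 0.52, limma adjusted p = 0.00263), and passed in 10 of 17 alternative fits. SOCS3, a feedback inhibitor of that signal, was at 1.09 ± 0.141 FPKM (siC, SD, n = 3) against 2.45 ± 0.330 FPKM (siImp1, SD, n = 4) (log2 difference 1.10, limma adjusted p = 0.00649), and passed in 8 of 16 alternative fits. SERPINA3, which interleukins 1 and 6 are known to induce in liver, held no more than 16 reads in any library.

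The hepatocyte factors with the highest levels in this list showed small differences. The log2 difference was 0.19 for XBP1 (limma adjusted p = 0.111), -0.067 for CEBPA (limma adjusted p = 0.61) and 0.0067 for NR1H4, the bile acid receptor (limma adjusted p = 0.974). HNF4A, named after its values were seen, had a log2 difference of 0.078 (limma adjusted p = 0.785). Genes of the secretory pathway that fold, export or degrade proteins such as serpins made up 24 genes, all tested. None passed, and the median was 0.074. An unadjusted limma p under 0.05 was reached by 3 higher and 3 lower genes, compared with 1638 higher and 2200 lower of all 14839 genes. limma-voom called 1 higher, compared with 353 of all genes. The chaperones CALR, HSP90B1 and HSPA5 had log2 differences of -0.0065, 0.13 and 0.16 (limma adjusted p = 0.991, 0.447 and 0.41). CANX, the chaperone calnexin, chosen after its values were seen, was at 180 ± 4.77 FPKM (siC, SD, n = 3) against 230 ± 3.28 FPKM (siImp1, SD, n = 4) (log2 difference 0.35, limma adjusted p = 0.0115), and it passed without siC replicate 3 (0.33, limma adjusted p = 0.00197). EDEM2 (-0.50, limma adjusted p = 0.0203) and DERL2 (-0.32, limma adjusted p = 0.0268), both degradation genes also chosen after their values were seen, went the other way. At an adjusted threshold of 0.05, 3 genes of this list were lower and 1 was higher.

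**Figure D4:**
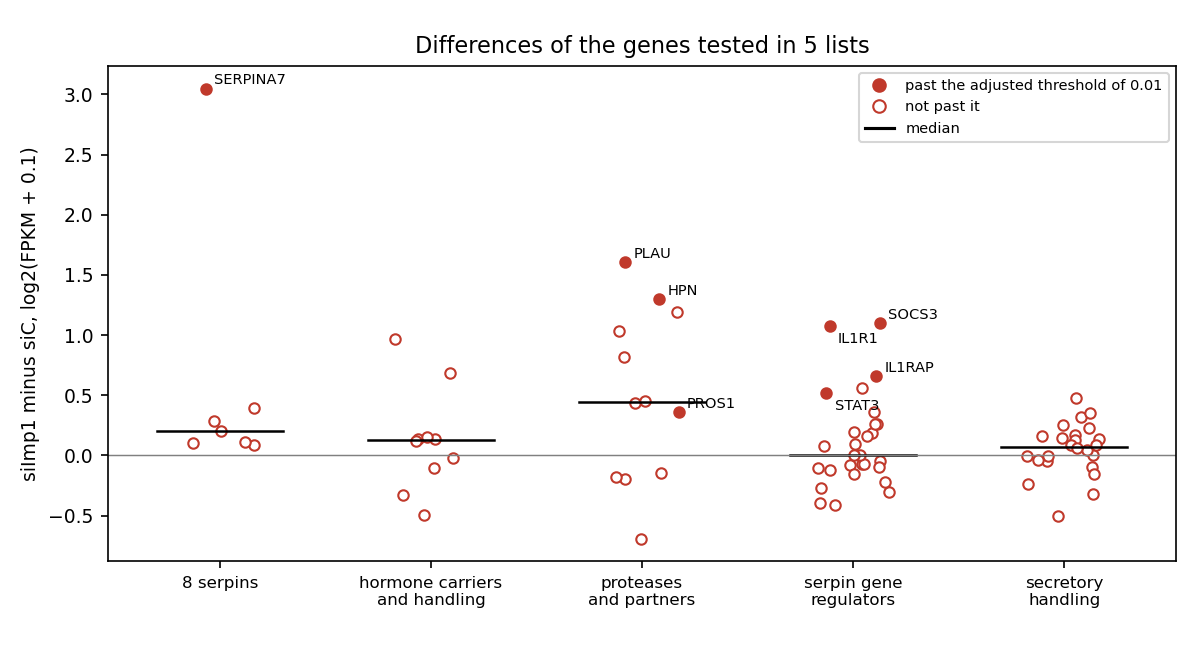
Difference between siImp1 and siC on the log2(FPKM + 0.1) scale of the genes tested in 5 of the lists, with filled points past the adjusted threshold of 0.01 and a bar at each median. SERPINA7 (3.05), which was chosen for its difference, stands highest, followed by PLAU (1.61). With all libraries no gene of the lists shown is past the threshold on the lower side.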

How the data were processed

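Total RNA was depleted of ribosomal RNA and sequenced from 3 siC and 4 siImp1 libraries. Per the labels and the study's methods, the authors trimmed adapters with cutadapt (1.14), mapped to GRCh38 with HISAT2 (2.1.0), handled alignments with SAMtools (1.5), counted reads per gene with featureCounts (1.5.3) and tested genes with edgeR (3.18.1). The kit was directional, but the strand setting of the counting is not given in the sources used here. The deposited table gives FPKM values per gene and library. Columns of the authors' fold change, p-value and FDR were not used, and 0 columns lay outside the labels. FPKM times gene length was a whole multiple of 1 read (tolerance 0.01) for 100.0% of values, from which reads per gene and depth follow.

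Genes averaging 1 FPKM or more were tested on log2(FPKM + 0.1) by limma (3.58.1, R 4.3.3), with a trend of variance on mean, two-sided, without covariates, with Benjamini-Hochberg adjustment over 14839 genes and a threshold of 0.01. This scale understates the change of low genes. Differences are siImp1 minus siC. The titles of the samples gave groups and replicate numbers. The labels do not say that libraries came from separate cultures, so p-values measure the spread between these samples, which may be technical. Alternatives were another pseudocount, filter, normalization, variance model, threshold, test on reads or gene set, a replicate block, and leaving out each library.

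The 8 genes and the lists were chosen with earlier results of these data known. Genes named were the 8 serpins, IGF2BP1, every list gene past the threshold and the 3 most abundant of each list, the other serpins of the chromosome 14 cluster, and the 5 genes most like SERPINA7. Some genes that this rule names are not reported here. Other genes are marked as chosen after their values were seen. Gene positions come from the GENCODE annotation of GRCh38 and promoters from RefSeq.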

Additional observations from a re-analysis of the deposited data

Results flagged for a closer look

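In groups of 4 libraries, a value was singled out where its gap to the nearest library, as a share of the range of the group, exceeded Dixon's 95% critical value. Of 55 gene results examined, 2 did so, and chance gives about 2.75. IL1RAP was at 12.2 FPKM in siImp1 replicate 2, against 12.9 to 13.1 FPKM in the others (gap 0.859 of the range). RNF128 was at 22.7 FPKM in siImp1 replicate 3, against 24.2 to 24.5 FPKM (0.863). None of the 8 serpins was among them.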

How the results depend on the processing

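The log2 difference of SERPINA7, for which the gene was chosen, is a description under every alternative and ran from 1.91 to 3.50 over 16 of them. It was 2.99 with replicate number as a block. No gene passed in that fit (0 lower and 0 higher, 0 of the serpins, smallest limma adjusted p = 0.0909), and 1315 lower and 1074 higher genes had an unadjusted p under 0.05. Deviations of same-numbered siC and siImp1 libraries from their group means correlated at -0.026, -0.118 and -0.111. None of the siC libraries correlated best with the siImp1 library of its own number. With so few libraries, centred within each group, these values cannot decide whether same-numbered samples were paired. With a mean of at least 5 FPKM SERPINA7 was not tested, which left 0 of the serpins past the threshold. Over all genes, 338 were lower and 245 higher. These counts were 206 and 146 without a filter, 1722 and 1022 with array weights, and 1010 and 703 at a threshold of 0.05. Among protein-coding genes only, 511 were lower. Without siC replicate 3, 990 were lower and 533 higher, and the lowest counts without another library were 53 and 66. limma-voom on reads called 489 lower and 353 higher. The cause of these shifts was not tested.

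Of 767 gene results under an alternative, 668 kept direction and side of the threshold, 41 lost the call, 40 gained it and 18 reversed. The fits that each left out 1 library gave log2 differences from -0.19 to 0.25 for SERPINA5, from -0.034 to 0.15 for SERPINA6, from -0.14 to 0.26 for SERPINF1 and from -0.22 to 0.17 for SERPINF2, the lowest in each case without siC replicate 3. Array weights gave -0.16 for SERPINA5, -0.084 for SERPINF1 and -0.18 for SERPINF2. Outside these, NR1H4 ran from -0.057 to 0.088, CXorf57 from -0.0076 to 0.25 and CALR from -0.28 to 0.14 when a library was left out. CALR was at 0.023 with median centring, 0.25 with quantile normalization and 0.0044 with limma-voom, and CEBPA at 0.065 with quantile normalization. Low reads limit SERPINA3 and the siC level of SERPINA7.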
